A study of Mus musculus with 4 samples.

Results

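The interleukin-1 (IL-1) family genes described here are the ligands Il1a, Il1b, Il18 and Il33, the receptor antagonist Il1rn, the receptors Il1r1, Il1r2 and Il1rl1, and the shared co-receptor Il1rap. They were taken by gene name, with every non-control probe of each. All 9 genes were on the array, of 37074 named features in all, and they had 19 probes of 56605. A gene entered the comparisons when a probe of it was well above background, by the flag of the scanner software, on at least 2 of the 4 arrays. By that filter 8 of the 9 genes and 23520 of all features passed, and those 8 were well above background on all 4 arrays. Il33 did not pass.

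The samples were tumour cells from untreated BALB/C mice implanted with 4T1, an established line of mouse mammary carcinoma. The cells were sorted with the ALDEFLUOR kit, whose fluorescent product is made by aldehyde dehydrogenase (ALDH), into an ALDH-low and an ALDH-high fraction at each of zeitgeber times ZT0 and ZT12, where ZT0 is conventionally lights on. Each of the 4 groups (ZT0 ALDH-low, ZT0 ALDH-high, ZT12 ALDH-low, ZT12 ALDH-high) held 1 sample, run on 1 Agilent array with a single colour, and there are no replicates. The labels write ALDH(-) and ALDH(+) for the fractions. The titles of both ZT12 samples end in a number and those of the ZT0 samples do not, and its meaning is not given. The labels give neither the number of mice behind a sample nor their age, and they describe no marker other than ALDH activity for the sort.

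Levels are on a log2 scale, as the processed signal relative to the array's own 75th percentile, so a level of 0 is that percentile and a difference of 1 is 2-fold. Precision is limited by the number of arrays. Between 55.8% and 60.6% of spots were well above background on an array, and 0 were saturated. The scanner software gave the members' spots that were well above background an error of up to 18.2% of signal. For the probe that stands for each gene, the error of a difference between 2 arrays was between 0.20 and 0.28 log2 units, which does not cover the spread between tumours. Time and slide coincide, since slide 1 carried the ZT0 samples and slide 2 those of ZT12, so they cannot be told apart. ZT0 ALDH-low and ZT12 ALDH-high lay at array position 1 of their slides and had spike-in slopes of 0.873 and 0.789. The scanner software marked both of these arrays for evaluation. ZT0 ALDH-high and ZT12 ALDH-low lay at array position 2 with slopes of 0.956 and 0.944. A pattern that sets these 2 pairs of arrays apart cannot be told apart from array position. In sorted bulk cells, fewer cells of a type and less RNA per cell cannot be told apart either.

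The labels name 4T1 cells, and all 12 epithelial markers of the list used here (keratins, Epcam, claudins and others) were well above background on 3 of the arrays and 11 on ZT0 ALDH-high, where Cldn4 was not. The 12 neutrophil markers and the 12 monocyte and macrophage markers were well above background on all 4 arrays as well. The RNA therefore holds transcripts of leukocyte genes beside those of carcinoma genes.

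As background, IL-1 alpha and IL-1 beta bind the receptor IL-1R1, which then pairs with the accessory protein IL-1RAcP and signals through MyD88, IRAK kinases and TRAF6 to NF-kappaB. IL-1Ra, the product of Il1rn, occupies IL-1R1 without signalling, and IL-1R2 binds IL-1 but lacks the signalling domain, so it acts as a decoy. IL-33 uses the receptor ST2, encoded by Il1rl1, with the same accessory protein, whereas IL-18 has receptor chains of its own. Neutrophils and macrophages are known sources of IL-1 beta, IL-1Ra and IL-1R2, and mast cells, basophils and some T cells are known for ST2.

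The probes that the results turn on are shown by the 5′ 30 of their 60 bases, read 5′ to 3′ from the array files, because several genes had probes for different transcripts and these did not always give the same differences.
Il1b, A_51_P212782: aggttcctataatatggatgagaattttta
Il1b, A_66_P114500: ggaaaagcggtttgtcttcaacaagataga
Il1b, A_55_P2720183: aggagctatcacttgaccacatctgttttc
Il1r1, A_51_P271503: tacttagatttcaccgtactttctgatggt
Il1r2, A_55_P2804650: ccaagctacggactgacaaccaggaattcc
Il1r2, A_52_P417890: gtggtataagggcgccatactcttggataa
Il1rap, A_55_P2807476: tgtatacagccacatgggatttaattctct
Il1rap, A_52_P467232: gatgttgtcaacgcctttgtttctaaatgt
Il1rap, A_55_P2041432: ccattttctttaaccagctcttccttgatc
Il1rap, A_52_P207374: gccttcatttcatctgtttgactagaactc
Il1rl1, A_55_P2027737: gccattgactccttgtgtgttttcttcatg
Il1rl1, A_51_P339793: ctctgtaacaggatcttttgtctagatttc
Positions of probes are in build mm9, as the files give them, and whether they fall in coding sequence or a UTR was not analysed. A_51_P212782 lies on chromosome 2 at 129190347-129190406, and A_66_P114500, for the same RefSeq transcript, at 129190880-129190939. A_55_P2720183, drawn from an Ensembl transcript, lies at 129195465-129195524. The Il1r2 probe A_52_P417890 covers 40168971-40171918 on chromosome 1, a span longer than its 60 bases, so it crosses at least 1 intron.

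The first question was which IL-1 family transcripts differed between ALDH-high and ALDH-low cells. At ZT0, 5 of the 8 measured genes were at least 2-fold higher in ALDH-high cells (Il1a, Il1b, Il1rn, Il1rap and Il1r2), against 19.4% of all features, and 1 (Il1r1) was at least 2-fold lower, against 31% of all features. At ZT12 the same 5 genes and Il18 were at least 2-fold lower in ALDH-high cells, 6 of 8 against 16.3% of all features, and 1 (Il1rl1) was at least 2-fold higher, against 31.3%. The median difference of the 8 genes was 1.61 at ZT0 and -1.64 at ZT12, beside -0.31 and 0.19 for all features. The pattern of at least 2-fold higher at ZT0 and at least 2-fold lower at ZT12 was held by 5 of 8 genes and by 14.1% of all features, and the reverse pattern by 0 of 8 and by 20% of all features. These counts have no replicate check. With median scaling the balance over all features turned, from 4560 higher and 7274 lower to 6902 and 4320 at ZT0, and from 7288 and 3793 to 4279 and 8975 at ZT12. The 6 genes lower at ZT12 were 7 with median scaling, 5 with normexp and 4 with quantile normalization and in the series table. The 5 genes with both differences were 6 with median scaling, which added Il18. They were 4 with normexp, without Il1a (0.96 at ZT0), and 4 without Il1rn with quantile normalization (-0.997 at ZT12) and in the series table (-0.96).

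**Figure D1:**
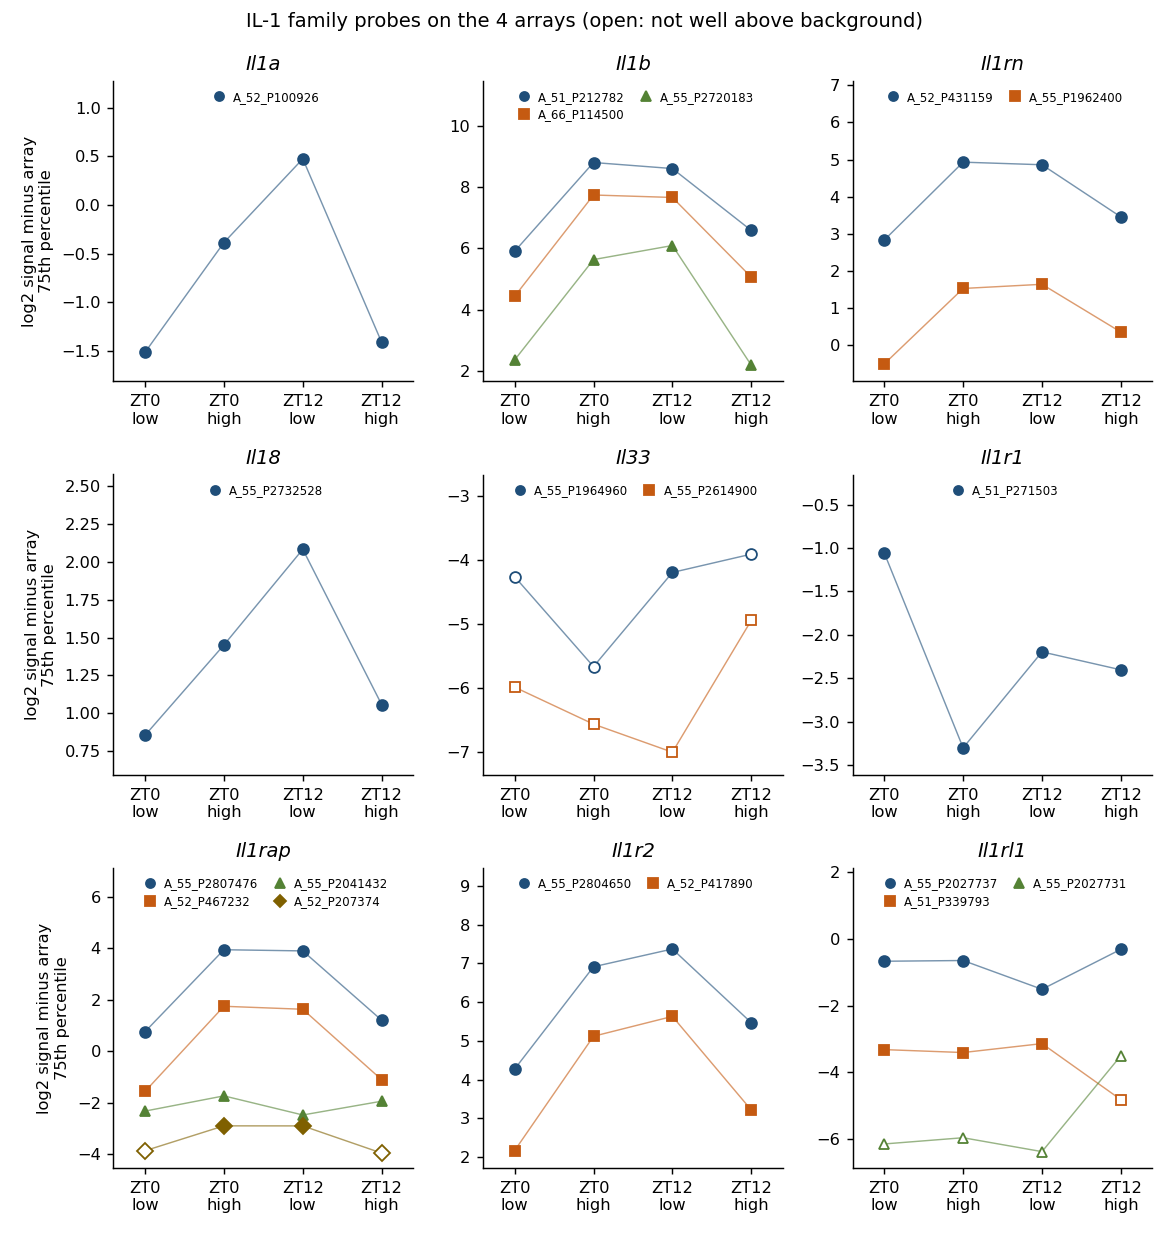
Levels of all 19 probes of the 9 genes on the 4 arrays (x axis: zeitgeber time and ALDH arm; y axis: log2 level relative to the 75th percentile; a scale of its own in each panel; lines join the points of a probe). The probes of Il1a, Il1b, Il1rn, Il18, Il1r2 and Il1rap were highest on ZT0 ALDH-high or ZT12 ALDH-low, and open points (not well above background) make up nearly all of Il33.

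Among the ligands, Il1b, the secreted cytokine that is cut to its active form by caspase-1, had the widest range. Its level by probe A_51_P212782 was 5.91 in ZT0 ALDH-low, 8.80 in ZT0 ALDH-high, 8.61 in ZT12 ALDH-low and 6.59 in ZT12 ALDH-high cells. ZT0 ALDH-high and ZT12 ALDH-low were the high arrays and differed by 0.20, within the scanner error of 0.20, while ZT12 ALDH-high lay 0.68 above ZT0 ALDH-low. ALDH-high minus ALDH-low was 2.90 (7.46-fold higher) at ZT0 and -2.02 (4.06-fold lower) at ZT12.

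The other Il1b probes had the same order of high and low pairs. Probe A_66_P114500 gave 4.44, 7.74, 7.66 and 5.06 in the order ZT0 ALDH-low, ZT0 ALDH-high, ZT12 ALDH-low and ZT12 ALDH-high, which is kept for all lists of 4 levels from here on. Probe A_55_P2720183 gave 2.36, 5.64, 6.10 and 2.19. The 3 probes were between 2.90 and 3.31 at ZT0, close to each other, but ran from -2.02 to -3.91 at ZT12. The size of the Il1b difference at ZT12 thus depended on the probe, between 4.06-fold and 15.0-fold.

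Il1a, whose product is active in its full-length form and can stay inside the cell, was measured by a single probe on chromosome 2 at 129125994-129126053, next to Il1b. Its levels were -1.51, -0.39, 0.47 and -1.41. ZT12 ALDH-low was the highest array, 0.86 above ZT0 ALDH-high, and the low pair differed by 0.10, under the scanner error. The ALDH difference was 1.13 (2.18-fold higher) at ZT0 and -1.89 (3.69-fold lower) at ZT12. Within each array, which removes the scaling, the Il1b difference exceeded that of Il1a by 1.77 log2 units at ZT0, and at ZT12 the values were -0.14 apart by the brightest Il1b probe and -0.72 and -2.02 apart by the others.

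Il1rn, the receptor antagonist, followed Il1b with smaller differences. Its levels by probe A_52_P431159 were 2.84, 4.93, 4.86 and 3.46, and ZT0 ALDH-high and ZT12 ALDH-low differed by only 0.07. The ALDH difference was 2.10 (4.28-fold higher) at ZT0 and -1.40 (2.65-fold lower) at ZT12. Its other probe, A_55_P1962400, gave 2.03 and -1.29. The ratio of Il1b to Il1rn was 1.74-fold higher in ALDH-high than ALDH-low cells at ZT0 and 1.53-fold lower at ZT12 by the brightest Il1b probe. By the other Il1b probes it was 2.31-fold and 2.26-fold higher at ZT0, and 2.29-fold and 5.67-fold lower at ZT12.

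Il18, a ligand that like IL-1 beta is activated by caspase-1, varied least among the ligands that passed the filter. Its levels were 0.86, 1.45, 2.08 and 1.06, highest in ZT12 ALDH-low cells. The ALDH difference was 0.60 (1.51-fold) at ZT0 and -1.02 (2.03-fold lower) at ZT12. The ZT12 value was under 2-fold with quantile normalization (-0.72), normexp (-0.66) and in the series table (-0.75).

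Il33, a nuclear cytokine released by damaged cells, has no fold. Its probe A_55_P1964960 was well above background on ZT12 ALDH-low alone, with a level of -4.20, and its probe A_55_P2614900 on none of the 4 arrays.

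Among the receptors, Il1r1, the signalling receptor, did not share the pattern of Il1b. Its levels were -1.06, -3.30, -2.20 and -2.40 from a single probe at 40372667-40372726 on chromosome 1. ZT0 ALDH-low was the highest array and ZT0 ALDH-high the lowest, and the ZT12 arrays lay between them and differed by 0.21, within the scanner error of 0.28. ALDH-high minus ALDH-low was -2.24 (4.74-fold lower) at ZT0 and -0.21 at ZT12. With normexp background correction the ZT0 value was -0.91, under 2-fold, and under median scaling the ZT12 value was -1.14.

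Il1r2, the decoy receptor, ran with Il1b. Its levels by probe A_55_P2804650 were 4.27, 6.91, 7.37 and 5.47, and by A_52_P417890 they were 2.17, 5.12, 5.63 and 3.21. ZT12 ALDH-low was the highest and ZT0 ALDH-low the lowest array by both probes. The ALDH difference was 2.64 (6.23-fold higher) at ZT0 and -1.90 (3.74-fold lower) at ZT12 by the former, and 2.95 and -2.41 by the latter. The ratio of decoy to signalling receptor, Il1r2 over Il1r1, was 29.5-fold higher in ALDH-high than in ALDH-low cells at ZT0 and 3.24-fold lower at ZT12. It rests on the dim Il1r1 probe, and the ZT0 value was 18.1-fold with quantile normalization, 17.2-fold in the series table and 11.5-fold with normexp. A ratio within an array shows unequal differences, not which gene differed.

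Il1rap, the accessory protein of the IL-1 and IL-33 receptors, had differences of a size like those of Il1b by the brighter of its 4 probes. By the brightest probe they were larger than those of Il1b at both times, but with averaged probes, quantile normalization, normexp and in the series table those of Il1b were larger. Probe A_55_P2807476, named for transcript variant 1 (chromosome 16, 26717577-26717636), gave 0.75, 3.94, 3.89 and 1.20. Probe A_52_P467232, named for variant 2 (26701498-26701557), gave -1.57, 1.74, 1.62 and -1.11. By both, ZT0 ALDH-high and ZT12 ALDH-low were the high arrays. Their ALDH differences were 3.18 and 3.31 at ZT0 (9.09-fold and 9.89-fold higher) and -2.69 and -2.74 at ZT12 (6.47-fold and 6.67-fold lower).

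The Il1rap probes farther along the chromosome were dimmer and did not share a pattern. Probe A_55_P2041432 (26725291-26725350, from an Ensembl transcript) gave -2.33, -1.74, -2.48 and -1.95, so ALDH-high cells were 1.51-fold higher at ZT0 and 1.45-fold higher at ZT12. Probe A_52_P207374 (26724859-26724918, variant 4) was well above background on ZT0 ALDH-high and ZT12 ALDH-low alone, at -2.90 on each. ALDH-high cells were by this probe at least 1.95-fold higher at ZT0 and at least 1.41-fold lower at ZT12. Such a bound divides the brighter array's value by the dim array's detection floor (its lowest signal well above background), or by the dim probe's value where that is larger. It is a least value, so whether the difference was smaller than by the brighter probes cannot be read from it. When the probes that passed the filter were averaged, the Il1rap difference was 2.01 at ZT0 and -1.49 at ZT12. That average uses the levels of A_52_P207374 on ZT0 ALDH-low and ZT12 ALDH-high, where it was not well above background.

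Il1rl1, the IL-33 receptor ST2, was the only one of the 8 genes with its highest level in ZT12 ALDH-high cells. Its levels by probe A_55_P2027737, named for transcript variant 1, were -0.67, -0.65, -1.51 and -0.31. ZT12 ALDH-low was the low array, and the ZT0 arrays differed by 0.02. The ALDH difference of 1.20 (2.30-fold higher) at ZT12 depended on the processing, at 0.27 with median scaling, 0.94 with quantile normalization, 0.56 with normexp, 0.97 in the series table and -0.24 when probes were averaged.

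Probe A_51_P339793, named for Il1rl1 transcript variant 2, did not share that order. It gave -3.32, -3.41 and -3.14 on ZT0 ALDH-low, ZT0 ALDH-high and ZT12 ALDH-low, and was not well above background on ZT12 ALDH-high. By it, ALDH-high cells were at least 1.20-fold lower at ZT12, the opposite direction. The averaged value of -0.24 takes in this probe's level of -4.82 on ZT12 ALDH-high. It therefore rests in part on a spot that was not well above background. The remaining probe, A_55_P2027731, was well above background on 0 arrays.

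**Figure D2:**
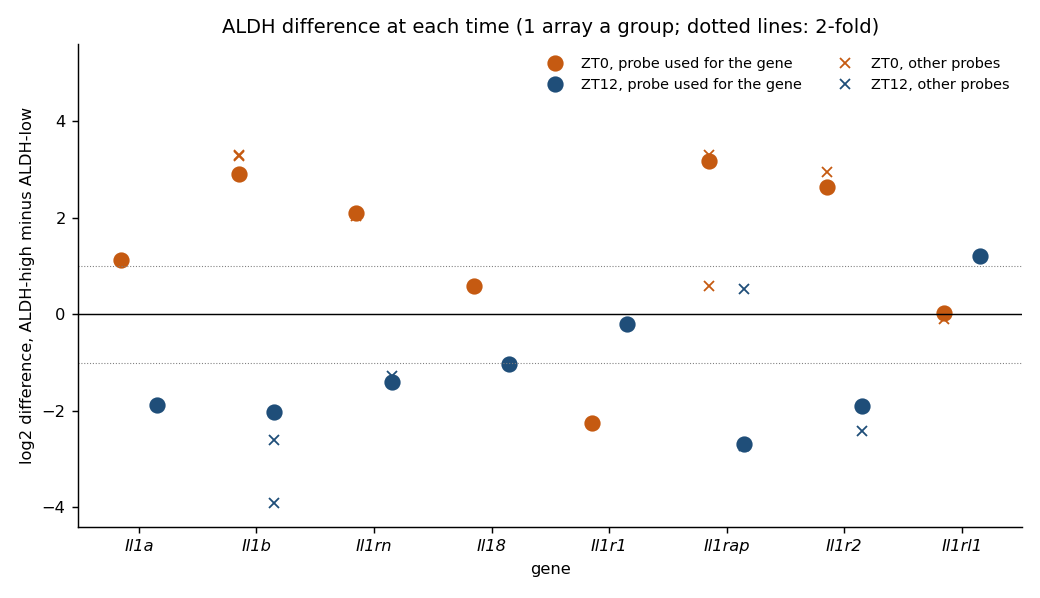
ALDH-high minus ALDH-low log2 difference (y axis) of the 8 measured genes (x axis) at ZT0 and ZT12, 1 array a group; circles are the probe with the highest mean level of each gene and crosses its other probes where well above background on both arrays. Il1rap, Il1b, Il1r2, Il1rn and Il1a lie above 1 at ZT0 and below -1 at ZT12, and 1 Il1rap probe lies at 0.59 and 0.54.

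The same arrays were also compared by time within each arm; these comparisons use the arrays of the ALDH comparisons again and are not separate evidence. In ALDH-low cells, 6 of 8 genes were at least 2-fold higher at ZT12 than at ZT0 (16.3% of all features) and 1, Il1r1, at least 2-fold lower (32.6%). The Il1r1 value of -1.14 there was -0.26 with median scaling. Il1rap differed by 3.14, Il1r2 by 3.10, Il1b by 2.70, Il1rn by 2.03, Il1a by 1.99 and Il18 by 1.23. In ALDH-high cells, 5 of 8 were at least 2-fold lower at ZT12 (19.1% of all features) and 0 at least 2-fold higher (32.1%). The values were -2.74 for Il1rap, -2.22 for Il1b, -1.47 for Il1rn, -1.44 for Il1r2 and -1.02 for Il1a. Each of the 5 genes was thus higher at ZT12 in the ALDH-low and lower at ZT12 in the ALDH-high fraction.

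The additive limma fit over 23520 features, with ALDH arm and time as terms, called 0 features for ALDH (0% of those tested) and 0 for time (0%) at an adjusted p of 0.05. At an unadjusted p under 0.05 there were 7 features for ALDH and 2 for time, and 0 of the 8 IL-1 family genes in either. With array position as a block in place of the other term these counts were 1915 for ALDH and 362 for time, with 0 called after adjustment. The fit has 1 residual degree of freedom and gave a standard error of 1.54 log2 units, and a feature would have needed a difference of 7.31 for the first call. The standard error was the same for each of the 8 genes, so it is not an error of each gene's own. The residual of a feature is the change of its ALDH difference between times, which also sets the array positions apart. The fit thus takes opposite differences at ZT0 and ZT12 as error and does not test them. Over both times the ALDH estimates of the 8 genes ran from -1.23 for Il1r1 to 0.61 for Il1rl1, all under that standard error. The estimates were near 0 for Il1b (0.44), Il1rn (0.35), Il1r2 (0.37) and Il1rap (0.25) because their ZT0 and ZT12 differences have opposite signs.

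**Figure D3:**
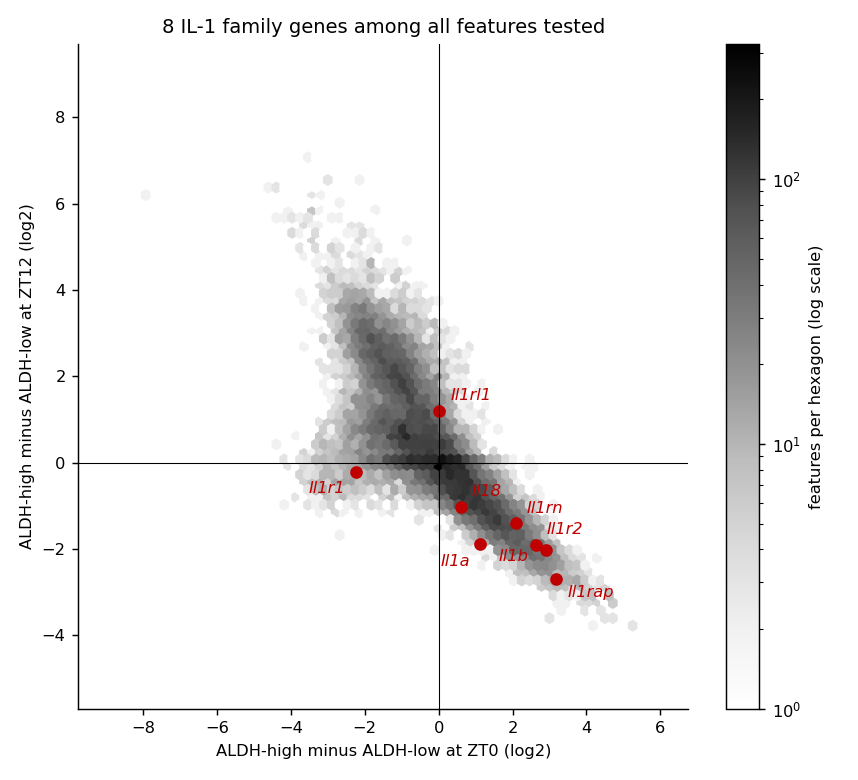
ALDH-high minus ALDH-low at ZT0 (x axis, log2) against that at ZT12 (y axis, log2) for features with a value at both times, grey by the number of features per hexagon on a log scale, with the 8 IL-1 family genes in red. Il1rap, Il1b, Il1r2, Il1rn and Il1a lie in the lower right quadrant among many other features, Il1r1 at the left below 0, and Il1rl1 above 0 at ZT12.

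Scaling moved all differences of a comparison together. The median difference of all features was -0.31 at ZT0 and 0.19 at ZT12 with the 75th percentile, and 0.18 and -0.57 with median scaling. The directions of Il1a, Il1b, Il1rn, Il1rap and Il1r2 at both times were kept under each scaling and normalization tried. With averaged probes included, Il1b ranged from 2.85 to 3.40 at ZT0 and from -2.02 to -2.96 at ZT12, Il1r2 from 2.15 to 3.14 and from -1.90 to -2.84, and Il1rn from 1.54 to 2.60 and from -0.96 to -2.34. Il1rap ranged from 2.01 to 3.69 and from -1.49 to -3.63, the smallest with averaged probes. Those of Il1a ranged from 0.96 to 1.63 and from -1.46 to -2.82.

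Other ligands and receptors of the family came from a list of 12 genes. Of these, 9 passed the filter. In ALDH-high cells 4 of 9 were at least 2-fold higher (19.4% of all features) and 3 lower (31%) at ZT0, and 3 were higher (31.3%) and 2 lower (16.3%) at ZT12, so all but the first count lay near the share of all features. Il36g (named Il1f9 on the array), an epithelial and myeloid cytokine that signals through Il1rl2 and Il1rap, had levels of -0.997, 3.61, 3.19 and -0.04. Its ALDH differences were 4.61 at ZT0 and -3.23 at ZT12. Il18rap, the accessory chain of the IL-18 receptor, gave 3.82 and -2.98, and Il18r1, its ligand-binding chain, 1.35 and -0.47. Il18bp, a soluble inhibitor of IL-18, gave 2.31 and -0.97. Il1rl2, the IL-36 receptor, gave 0.21 and -0.91, and Il1rapl1 gave -1.17 and 2.70.

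Along chromosome 1 the receptor genes lie within 426 kb by their probes, in the order Il1r2, Il1r1, Il1rl2, Il1rl1, Il18r1 and Il18rap. At ZT0 the ALDH differences along it were 2.64, -2.24, 0.21, 0.02, 1.35 and 3.82, and at ZT12 they were -1.90, -0.21, -0.91, 1.20, -0.47 and -2.98. Il1r2 and Il18rap at the ends, and Il18r1 between them, thus had a positive difference at ZT0 and a negative one at ZT12. Il1rl2 had these signs too, but its 0.21 at ZT0 was of the size of the scanner error given above (0.20 to 0.28). Il1r1 and Il1rl1 did not have that pair of signs.

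Of 14 genes for processing of IL-1 and the inflammasome, the complex that activates caspase-1, all passed the filter. In ALDH-high cells 5 of 14 were at least 2-fold higher (19.4% of all features) and 1 lower (31%) at ZT0, and 1 was higher (31.3%) and 5 lower (16.3%) at ZT12, with medians of 0.42 and -0.64. Casp1 itself had levels of 2.44, 4.18, 3.85 and 2.64, so its differences were 1.74 and -1.21. Casp4, the caspase that senses bacterial lipopolysaccharide in the cell, gave 2.94 and -2.05, and Gsdmd, which forms the pore through which IL-1 beta leaves, 1.94 and -1.20.

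Of 17 genes for receptor signalling, 11 were at least 2-fold higher in ALDH-high cells at ZT0 (19.4% of all features) and 0 lower (31%). At ZT12, 11 were lower (16.3%) and 0 higher (31.3%). The medians were 1.60 and -1.50. Myd88, the adaptor of IL-1 receptors, gave 2.997 and -2.11, and Map3k8, a kinase upstream of ERK, 2.94 and -2.32. Irak3, an inhibitory member of the IRAK family, gave 2.52 and -2.21.

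Of 18 NF-kappaB response genes, 17 passed the filter. In ALDH-high cells 10 of 17 were at least 2-fold higher (19.4% of all features) and 6 lower (31%, a like share) at ZT0, and 1 was higher (31.3%) and 12 lower (16.3%) at ZT12, with medians of 1.31 and -1.56. Nfkbiz, an inducible nuclear cofactor of NF-kappaB, gave 3.94 and -3.27, Saa3, an acute phase protein, 2.78 and -2.88, and the neutrophil attractant Cxcl2 2.74 and -2.59. Il6 did not follow, at -0.38 and 0.56, and 1 of its probes had the opposite sign at ZT0. The 6 genes that were lower at ZT0, named after their values were seen, were the cytokines Csf3 (-2.89) and Csf2 (at least 3.75-fold lower), the protease Mmp3 (-2.66) and the chemokines Cxcl5 (-1.90), Ccl2 (-1.74) and Cxcl1 (-1.04). In each of these 4 lists 0 genes were called by limma for ALDH, adjusted over all features.

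**Figure D4:**
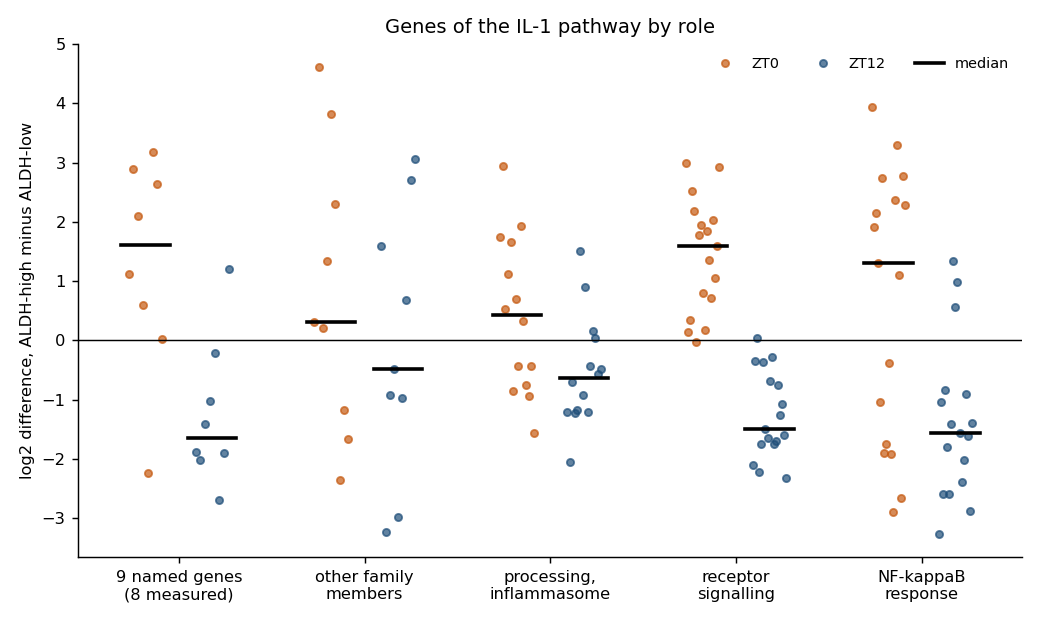
ALDH-high minus ALDH-low log2 difference (y axis) at ZT0 and ZT12 for the measured IL-1 family genes and the 4 lists of other pathway genes (x axis); each point is a gene, and black bars are medians. The median of receptor signalling genes was 1.60 at ZT0 and -1.50 at ZT12, and the 8 IL-1 family genes had 1.61 and -1.64.

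Markers of blood cells varied with several of these genes. The median level of the 12 neutrophil markers was 4.43, 7.98, 6.87 and 4.77, so ZT0 ALDH-high and ZT12 ALDH-low were its high arrays, as for Il1b, Il1rn, Il1r2 and Il1rap. In ALDH-high cells 9 of 12 were at least 2-fold higher (19.4% of all features) and 0 lower (31%) at ZT0. At ZT12, 8 of 12 were lower (16.3%) and 2 higher (31.3%). Cxcr2, a receptor of mature neutrophils, had levels of 2.14, 6.84, 6.11 and 2.92. S100a8, S100a9 and Csf3r did not share this order; S100a9 was highest in ZT12 ALDH-high cells, at 10.5. The summed signal of the list, in units of the 75th percentile of the array, ran from 2145 to 3633, with ZT0 ALDH-high the highest and ZT12 ALDH-low the lowest. The part of neutrophil transcripts in the IL-1 family differences was not tested.

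Il1r1 shared its highest and lowest arrays with epithelial markers. The median level of the 12 epithelial markers was 1.16, -1.91, -0.19 and 0.49, with ZT0 ALDH-low highest and ZT0 ALDH-high lowest. At ZT0 all 12 markers were at least 2-fold lower in ALDH-high cells (31% of all features), with a median of -3.74. At ZT12, 2 were at least 2-fold higher (31.3%) and 0 lower (16.3%), with a median of 0.61. The summed signal of the list ran from 12.5 to 204.5. The 10 fibroblast markers, another known source of Il1r1, had medians of 0.98, -0.09, -0.35 and 0.34 and a summed signal between 15.0 and 31.9. The part of these cells in the Il1r1 difference was not tested.

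Markers of mast cells and basophils, which are known to carry ST2, had their lowest median on ZT12 ALDH-low, as did Il1rl1 by its probe for variant 1. The medians were -1.61, -0.92, -3.37 and -1.13. In ALDH-high cells 9 of 12 markers were at least 2-fold higher (31.3% of all features) and 2 lower (16.3%, a like share) at ZT12. At ZT0, 3 of 12 were higher (19.4%) and 1 lower (31%). Cpa3, a mast cell protease, had levels of -2.02, -2.19, -4.22 and -1.10. Hdc and Kit ran the other way (2 other Kit probes had the opposite sign to the one used at ZT0), and Hdc, at 4.99, 8.42, 8.19 and 5.68, carried most of the summed signal, which ran from 39.7 to 350. Cma1 was not well above background on ZT0 ALDH-high and ZT12 ALDH-low. Of the regulatory T cell and group 2 innate lymphoid cell markers, Il5 and Il13 were well above background on 0 arrays, and 8 were measured. In ALDH-high cells 6 of these 8 were at least 2-fold higher (31.3% of all features) and 0 lower (16.3%) at ZT12. All 8 were at least 2-fold lower at ZT0 (31%), where Il1rl1 differed by 0.02. The part of these cells in the Il1rl1 difference was not tested.

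Of the remaining lists, monocyte and macrophage markers had medians of 4.69, 2.32, 2.52 and 4.63, highest where Il1b was lowest, while their summed signal, from 285 to 488, was lowest on ZT0 ALDH-low and highest on ZT0 ALDH-high. T and NK cell markers (1.17, -1.23, -3.63 and 1.80), B cell markers (1.72, -2.53, -3.55 and 1.71) and red cell markers (4.59, -2.23, -1.21 and 2.89) were likewise highest on the arrays at position 1. Endothelial markers had medians of -1.90, -2.43, -1.79 and -1.62, and Tek, Tie1, Emcn and Cldn5 were well above background on 0 arrays.

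**Figure D5:**
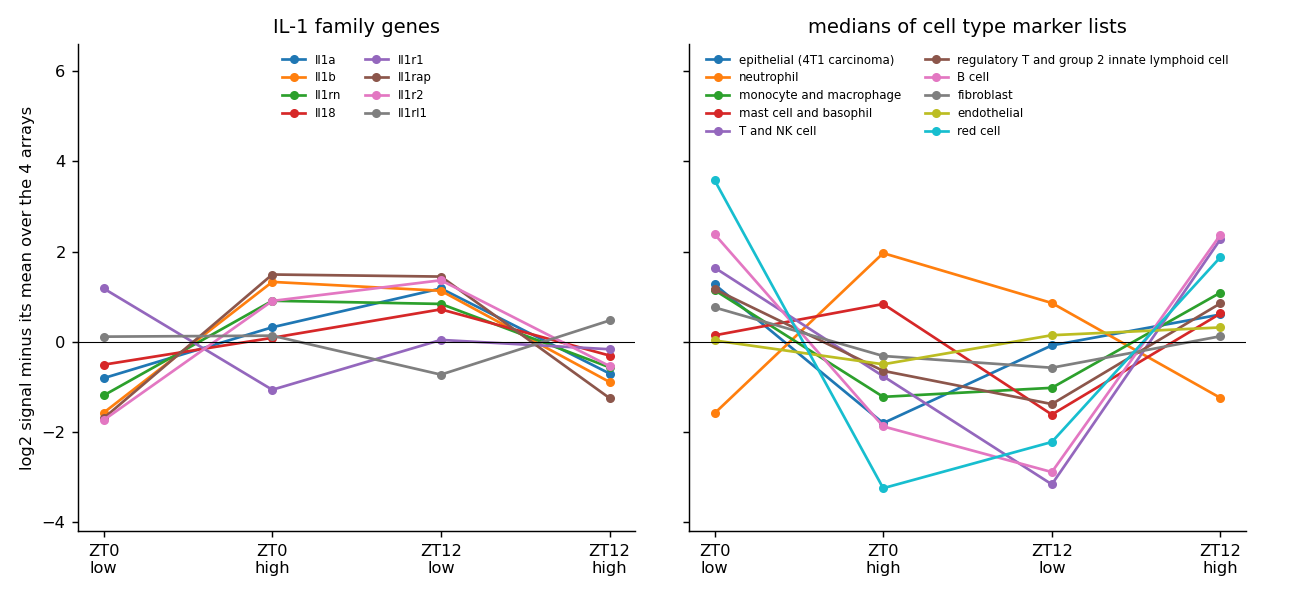
Levels on the 4 arrays (x axis) as log2 signal minus the mean over the arrays (y axis), for the 8 IL-1 family genes (left) and for the medians of 10 marker lists (right). The neutrophil median is high on ZT0 ALDH-high and ZT12 ALDH-low, like Il1b and Il1rap, while the T and NK, B and red cell medians are low there.

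Genes with the most similar profiles were found by the root mean square difference of the 4 log2 levels after each gene was centred on its mean, over 12708 other symbols well above background on all 4 arrays. With only 4 arrays many genes come close: 334 lay within 0.25 log2 units of Il1b and 178 of Il1rap. The nearest to Il1b were Tbc1d2b (0.034), Tbc1d2 (0.047) and Casp4 (0.049), and the nearest to Il1rn were Cd44 (0.033), Sdcbp (0.041) and Pla2g7 (0.041). For Il1rap they were Fbxl5 (0.037), March7 (0.043) and Sipa1l2 (0.043), and for Il1r2, with 36 genes within 0.25, Slc32a1 (0.056), Ccrl2 (0.082) and Ccdc126 (0.090). For Il1a they were Klhl6 (0.080), Dmkn (0.11) and Hk2 (0.13), and for Il18 Wbp5 (0.046), Mrpl45 (0.046) and Egln1 (0.051). For Il1r1 they were Slc5a3 (0.078), Ngef (0.11) and Tns2 (0.13). The nearest to Il1rl1 was Rnf165 (0.020).

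The 250 bases before the transcription start of 4 genes that shared the pattern of higher at ZT0 and lower at ZT12 are shown, since their levels ran together in these samples. The sequences are from RefSeq on build GRCm38.p6, 5′ to 3′ on the gene's strand; the other gene of that pattern, Il1rn, has 3 starts in the table and is given by its matches. Capitals mark matches to 5 motifs, searched on both strands. The motif of the basal promoter box was TATAAA, that of AP-1 was TGANTCA, that of C/EBP was TTNNGNAAT and that of PU.1 was GAGGAAG. The NF-kappaB consensus had 10 letters, in order GGG, A or G, any base, A or T, C or T, C or T, and CC.
Il1b, chr2:129371140-129371389, minus strand: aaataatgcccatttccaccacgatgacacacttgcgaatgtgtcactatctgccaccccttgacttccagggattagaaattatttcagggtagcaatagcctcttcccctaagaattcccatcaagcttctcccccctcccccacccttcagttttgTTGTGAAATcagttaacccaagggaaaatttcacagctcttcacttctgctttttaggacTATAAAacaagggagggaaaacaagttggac
Il1a, chr2:129309973-129310222, minus strand: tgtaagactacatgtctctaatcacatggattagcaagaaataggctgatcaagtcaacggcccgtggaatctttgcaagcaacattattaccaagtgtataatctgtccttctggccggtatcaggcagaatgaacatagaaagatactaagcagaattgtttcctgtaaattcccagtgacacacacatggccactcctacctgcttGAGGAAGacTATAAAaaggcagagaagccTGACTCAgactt
Il1r2, chr1:40085843-40086092, plus strand: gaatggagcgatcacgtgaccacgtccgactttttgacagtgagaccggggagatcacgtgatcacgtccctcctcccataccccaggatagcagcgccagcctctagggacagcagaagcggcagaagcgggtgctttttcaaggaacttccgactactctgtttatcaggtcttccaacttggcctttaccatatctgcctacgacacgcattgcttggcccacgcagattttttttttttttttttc
Il1rap, chr16:26581455-26581704, plus strand: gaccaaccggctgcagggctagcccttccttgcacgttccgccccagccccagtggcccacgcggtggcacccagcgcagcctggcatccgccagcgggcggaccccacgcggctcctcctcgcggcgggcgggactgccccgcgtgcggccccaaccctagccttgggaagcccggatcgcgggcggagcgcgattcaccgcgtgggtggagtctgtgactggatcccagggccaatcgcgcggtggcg
The neighbouring cytokine genes Il1b and Il1a each held 1 TATA box match, 31 and 32 bases before the start, a motif found in 12.4% of 32851 promoters of this length. Il1b also held 1 C/EBP match (10.2% of promoters) at 91 bases before the start, and Il1a 1 PU.1 match (10.6%) and 1 AP-1 match (6.75%). The receptor genes Il1r2 and Il1rap held 0 matches to any of the 5 motifs. Of the 3 Il1rn starts, 1 had an AP-1 match, 1 a C/EBP match and 1 none. Genes outside that pattern held matches too. Il18 had a TATA box match on the opposite strand, 175 bases before its start. The Il33 starts had 1 each, at 203 bases before 1 start and 29 bases before the other. Both Il1r1 starts and 1 Il1rl1 start had a C/EBP match. Among the 9 genes, 1 start of Il1r1 alone held the NF-kappaB consensus, which 3.90% of promoters hold. A match describes the letters of this window and no binding, and no match says only that these letters are not in it.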

How the data were processed

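Arrays were one-colour and Cy3-labelled with a low-input kit, per the labels. Per the file headers, the authors' scans were read with Agilent Feature Extraction 10.7.1.1, and version 9.5.1.1 stands in the submitters' processing notes. The deposited processed signal is a linear intensity after background subtraction and spatial detrending, with surrogates for dim spots and no normalization between arrays, per the file headers. The deposited series table holds intensity values whose 4 columns share a median of 28.3 and have a rank correlation of 1 with their own arrays, which share 1 distribution; its software is not given.

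Control spots were left out, and outlier spots unless a probe had no other. Log2 processed signal minus the array's 75th percentile over non-control spots (213.6, 300.6, 458.8 and 156.3 in the order used in the text) was compared, with the probe of highest mean level for each gene. limma 3.58.1 in R 4.3.3 fitted ALDH arm and time over all features, two-sided, with Benjamini-Hochberg adjustment. The code was tried on simulated data with independent noise and no effect of time or array position. That trial says nothing on how the fit behaves where such an effect is present. Il36a, Il36b, Il36g and Il36rn were matched by older names. RefSeq promoters matched 9 of 9 genes with 14 starts.

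The IL-1 family genes, the lists and the tests were chosen with earlier results of these data known. Named pathway genes were the 3 of each list with the largest mean absolute ALDH difference, if well above background on every array, plus Casp1, Il18r1, Il18bp, Il1rl2, Myd88, Il6 and Nfkbiz; marker genes and the Hdc, Kit, S100a8, S100a9, Csf3r and Cma1 exceptions were picked after their values were seen. Tables and figures were made in Python 3.11.15 (matplotlib 3.10.9, numpy 2.4.6, pandas 2.3.3). Alternatives were other scalings, background correction, the series table, other filters, averaged probes, outlier spots kept, array position as a block and each array left out. Ratios by other probes and settings, and the count of genes with opposite differences by setting, were added after the data were seen. For Il1rl1 only the nearest gene by profile is given, and the others are not reported here.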

Additional observations from a re-analysis of the deposited data

Results flagged for a closer look

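In 5 genes the ALDH difference had opposite signs at the 2 times, at least 2-fold higher in ALDH-high cells at ZT0 and at least 2-fold lower at ZT12. Other processing settings held this 2-fold pattern for between 4 and 6 genes, losing Il1a with normexp and Il1rn with quantile normalization and in the series table. The ZT12 minus ZT0 change of the ALDH difference was -5.88 log2 units for Il1rap, -4.92 for Il1b, -4.54 for Il1r2, -3.50 for Il1rn and -3.01 for Il1a. The difference between times was not tested, since each group has 1 array, and it coincides with array position.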

How the results depend on the processing

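No paired analysis was possible because each group has 1 sample, so no replicate numbers pair samples; the time term of the fit already compares the arms within a slide. Of 256 recomputed single differences, 137 moved by less than the scanner error and 118 by more, and among those of at least 2-fold 1 turned, Il1rl1 at ZT12, which was -0.24 with averaged probes. Other filters and kept outlier spots could hardly move these differences, since they left the probes of the IL-1 family genes in place. Averaging could not move Il1a, Il18 or Il1r1, which have 1 probe each. The 137 include all such differences, so they are no measure of stability. With averaged probes the additive ALDH estimate of Il1rl1 was also -0.14, and with median scaling the time estimate of Il1r1 was 0.038. Features at least 2-fold higher and lower with median scaling were 6902 and 4320 for ALDH at ZT0, 4279 and 8975 at ZT12, 8125 and 3831 for time in ALDH-low and 4258 and 6980 in ALDH-high cells. With normexp, 3598 were lower at ZT0, 3137 higher at ZT12, 3059 lower for time in ALDH-low and 3501 higher in ALDH-high cells. The IL-1 family gene at least 2-fold lower at ZT0 (Il1r1) became 0 genes with normexp. The gene at least 2-fold higher at ZT12 (Il1rl1) became 0 with median scaling, quantile normalization, normexp, the series table and averaged probes, and the gene lower in time in ALDH-low cells (Il1r1) became 0 with median scaling, quantile normalization, normexp and the series table. With 1 array left out, which drops the other factor and assumes that a lone array varies like the rest, 0 features were called for ALDH and from 0 to 1 for time (Gzmc, without ZT12 ALDH-high, named after its value was seen). Additive ALDH estimates then ran from -1.37 to 0.61 for Il1a, -0.91 to 1.79 for Il1b, -0.67 to 1.36 for Il1rn, -0.83 to 0.40 for Il18, -1.32 to 1.81 for Il1rap and -1.18 to 1.92 for Il1r2, turning without either ZT0 array for Il1b, Il1rn, Il1rap and Il1r2, without either ZT12 array for Il1a, and without ZT12 ALDH-low for Il18. Time estimates ran from -0.46 to 1.42 for Il1a, -1.21 to 1.69 for Il1b, -0.77 to 1.33 for Il1rn, -0.10 to 0.93 for Il18, -1.24 to 1.001 for Il1r1, -1.39 to 1.79 for Il1rap, -0.49 to 2.15 for Il1r2 and -0.85 to 0.35 for Il1rl1, turning without ZT0 ALDH-low or ZT12 ALDH-low for Il1a, Il1b, Il1rn, Il1rap and Il1r2, without ZT12 ALDH-low for Il18 and Il1rl1 and without ZT0 ALDH-low for Il1r1. The cause of these changes was not tested. Dim probes (Il33, Il1r1 and the less bright probes of Il1rap and Il1rl1) are limited by their signal over background.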
